A study of Mus musculus with 6 samples.

Results

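The end-points of a medium conversion were compared: J1 mouse embryonic stem (ES) cells in serum (D0) and the same line after 13 days in 2i+vitC (D13). All 12626 genes with a row in the deposited gene tables of the series were members of the comparison, 12626 of 12626. No measured value chose among these rows, but only genes above 1 CPM in at least 3 of the 6 samples had one. RNA-seq had been performed on 2 samples at D0, 2 at D6 and 2 at D13. J1 is an established ES cell line, labelled WT and cultured without feeder cells on gelatin. At D0 the cells were in Glasgow medium with 15% fetal bovine serum and 1000 U/mL of leukemia inhibitory factor (LIF). At D13 they were in serum-free neurobasal and DMEM/F12 medium with the N2 and B27 supplements, 3 µM of the Gsk3 inhibitor CT-99021, 1 µM of the MEK inhibitor PD0325901 and 100 µg/mL of vitamin C. LIF was present at 1000 U/mL on each day. Serum, basal medium, both inhibitors, vitamin C and the time in culture all differed between D0 and D13, so that their shares in a difference cannot be told apart. Every sample came from a single cell line, and the p-values measure the spread between samples of this line. In the fit, the D6 samples served only to estimate that spread. They also counted toward the level that gave a gene a row.

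Mouse ES cells correspond to the inner cell mass of the blastocyst and can be held in more than one pluripotent state. In serum with LIF, autocrine FGF signalling through MEK and ERK keeps a part of the cells close to differentiation. MEK inhibition blocks that signal, Gsk3 inhibition stabilizes beta-catenin, and the combination (2i) holds the cells in a naive state known as the ground state, with low DNA methylation. Vitamin C is a cofactor of the TET enzymes, which oxidize methylated cytosine. Values below are CPM, the reads of a gene scaled to a library of fixed size, a share of the read pool that does not account for gene length, or their log2. A gene was called at more than a 4-fold difference between D13 and D0 with a limma adjusted p under 0.05.

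Of the 12626 genes, 941 rose between D0 and D13 (7.45%) and 759 fell (6.01%). In each called gene both D13 samples lay on one side of both D0 samples, which was so for 34% of all genes with higher and 35.6% with lower D13 values. At more than a 2-fold difference the counts were 2098 up (16.6%) and 2059 down (16.3%), and the median gene differed by -0.01 on the log2 scale. The median fold was 8.21 among the genes that rose and 6.91 among those that fell. More than 64-fold differences were found for 93 genes up and 19 down. The genes that rose held 0.648% and 0.846% of the gene reads in the D0 samples and 5.20% and 4.57% in the D13 samples. The genes that fell held 3.84% and 3.88% at D0 and 0.418% and 0.593% at D13. A small part of the read pool in each medium thus carried the called genes, about the same size in both directions. The deposited tables hold a gene only if it was above 1 CPM in at least 3 of the 6 samples. A gene read in serum alone therefore had no row, while a gene absent at D0 and read at D6 and D13 had one. 459 genes were under 1 CPM in both D0 samples and 226 in both D13 samples. The larger count of rises than falls was not separated from this filter. Nor were the rises of genes named below that were under 1 CPM in both D0 samples, such as Cdx1, Fgf3, Asz1 and Fbln5. These had a row only through D6 and D13.

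**Figure D1:**
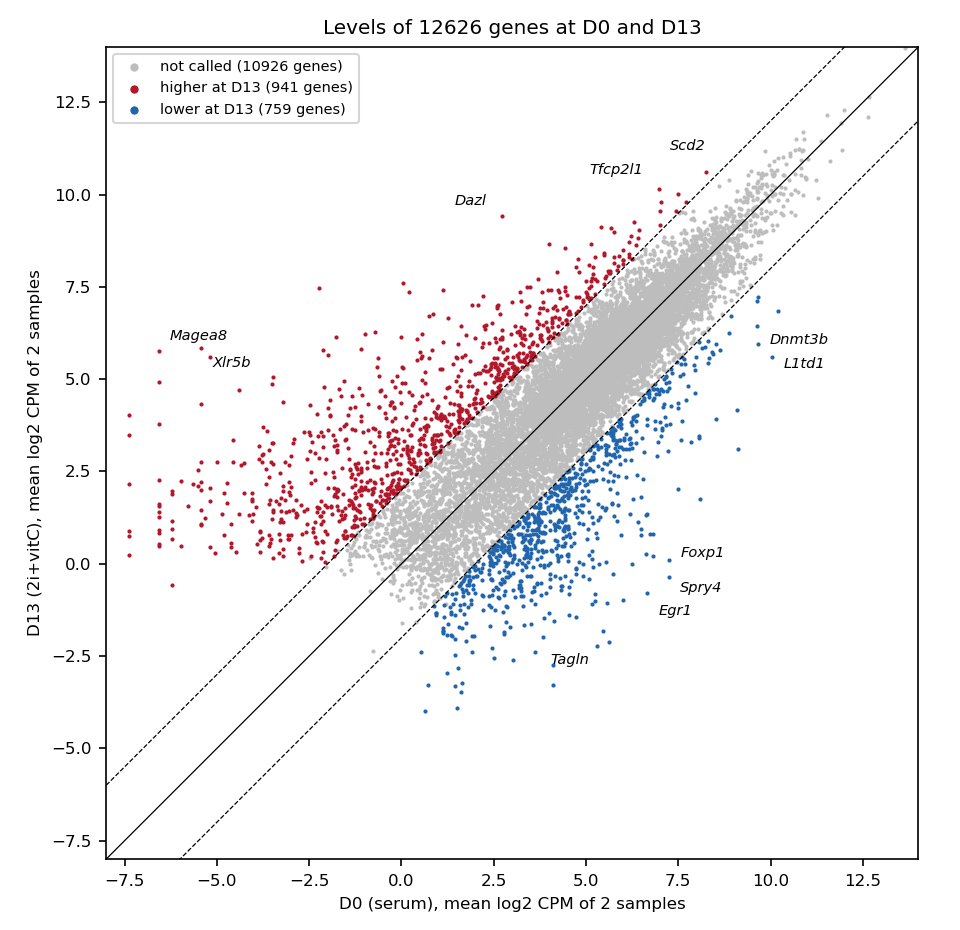
Mean log2 CPM of each of 12626 genes at D0 (x axis, serum, 2 samples) and at D13 (y axis, 2i+vitC, 2 samples). The solid line marks equal levels and the dashed lines a 4-fold difference. Red points are the 941 genes called higher at D13, which lie mostly at low D0 levels, blue points the 759 called lower, and grey points the genes not called.

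Gene reads ranged from 73230745 to 83688345 per sample, and 3 reads were worth 0.0344 to 0.0420 CPM. Between replicates of the same day, 176 genes differed by more than 4-fold at D0 and 88 at D13. All 10 ES cell markers had a row, with summed CPM of 5448 and 5104 at D0 and 7066 and 4685 at D13. Of 10 fibroblast markers, 5 had a row, with summed CPM of 34.8, 15.8, 14.6 and 15.2 in the same order. 3 of 8 extraembryonic endoderm markers had a row (summed CPM 2.35 to 4.02), as did 1 of 6 blood or endothelial markers, Kdr (1.53 to 3.28). Of 6 neural markers 3 had a row, with 87.2 and 84.7 CPM at D0 and 26.8 and 32.9 at D13, and Map2 among them fell. Of 6 markers of 2-cell-like cells 3 had a row, all copies of Zscan4, and all fell. The ES cell markers thus held far more of the reads than those of any other cell type, on each day. In these bulk samples, fewer cells that express a gene and less RNA per cell cannot be told apart.

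The targets of ERK signalling were among the most reduced transcripts in 2i+vitC. Of 23 feedback and immediate-early genes with a row, 13 fell and 0 rose, and their median log2 fold change was -2.27. Spry4, a feedback inhibitor of receptor tyrosine kinase signalling, was at 200 and 115 CPM at D0 and 0.650 and 0.926 CPM at D13. Egr1, an immediate-early transcription factor, was at 75.6 and 136 CPM at D0 and 0.734 and 0.446 at D13. The D0 and D13 samples were far apart for both, with log2 fold changes of -7.61 (SE 0.66, limma adjusted p = 7.1e-05) for Spry4 and -7.47 (SE 0.53, limma adjusted p = 2.9e-05) for Egr1. The ERK phosphatases Dusp6 and Dusp4 fell less. Dusp6 went from 108 and 75.9 to 3.10 and 4.0 CPM, and Dusp4 from 39.4 and 77.8 to 6.15 and 8.87 CPM. Their log2 fold changes were -4.68 (SE 0.38) and -2.91 (SE 0.39), and both stayed detectable at D13. Myc, the growth-promoting transcription factor, went from 93.8 and 43.6 CPM to 0.552 and 0.460, a log2 fold change of -6.99 (SE 0.49). The list as a whole added up to 2115 and 1870 CPM at D0 and 699 and 747 CPM at D13.

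Among FGF ligands, receptors and adaptors, 5 of 15 fell and 2 rose. Fgfr2, an FGF receptor, fell from 30.4 and 64.8 CPM to 0.203 and 0.393 (log2 fold change -7.30, SE 0.54, limma adjusted p = 3.8e-05). Flrt3, a membrane protein that binds FGF receptors, changed by -4.96 on the log2 scale, and the ligands Fgf17 and Fgf15 by -4.91 and -3.96. Fgfbp1, which binds secreted FGFs, completed the falls with -4.08. Fgf4, the main autocrine FGF of ES cells, was at 109 and 198 CPM at D0 and 191 and 227 CPM at D13, and the ranges overlapped (log2 fold change 0.50, SE 0.30). The ligand Fgf3 rose from 0.895 and 0.796 to 5.88 and 4.0 CPM, by 2.52 on the log2 scale. The adaptor Frs3 had a log2 fold change of 2.21, which was 1.97 without D0 replicate 1 and 1.99 without D13 replicate 1, so that 1 gene of the list was up in either case, and 3 were up without D0 replicate 2. The receptor Fgfr2 and the ligands Fgf17 and Fgf15 were thus reduced and the ligand Fgf3 was raised. Fgf4 and the other receptors of the list, Fgfr1, Fgfr3 and Fgfr4, were not called.

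Of the Nodal and activin pathway, 5 of 17 genes fell and 0 rose. Nodal, a TGF-beta family ligand, was at 62.7 and 66.9 CPM at D0 and 9.08 and 11.3 at D13, with a log2 fold change of -2.68 (SE 0.22, limma adjusted p = 6.3e-05). Its feedback inhibitor Lefty1 went from 102 and 121 CPM to 3.07 and 0.993 (-5.99, SE 0.51). Skil, a SMAD corepressor, and the activin subunit Inhbb fell, with log2 fold changes of -2.66 and -2.24, the latter -1.81 without D0 replicate 1. Ligand and inhibitor were lower in each D13 sample than in either D0 sample.

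Of 11 BMP pathway genes, 4 fell and 2 rose. The Id genes encode inhibitors of basic helix-loop-helix factors and are induced by BMPs, which serum contains. Id3 was at 59.4 and 25.8 CPM at D0 and 0.357 and 0.127 at D13 (log2 fold change -7.52, SE 0.62, limma adjusted p = 6e-05). Id1 was at 163 and 23.5 CPM at D0 and 2.34 and 1.25 at D13 (-5.18, SE 0.76), and Id2 at 108 and 23.6 CPM at D0 and 4.82 and 6.43 at D13 (-3.18, SE 0.62). The D0 samples differed several-fold from each other for Id1 and Id2, yet both lay above the D13 samples. The ligand Bmp4 changed by -2.66. Bmp7 rose from 2.38 and 3.89 CPM to 43.3 and 33.2 (3.64, SE 0.32), and the receptor-regulated Smad9 rose by 2.40. The list thus held ligands that moved in opposite directions.

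Targets of Wnt and beta-catenin were called in both directions. With the Gsk3 inhibitor present at D13, 3 of 16 genes rose, 1 fell, and the median log2 fold change was -0.04. Cdx1, a caudal-type homeobox gene, was at 0.412 and 0.189 CPM at D0 and 10.8 and 2.35 CPM at D13 (log2 fold change 4.18, SE 0.70, limma adjusted p = 0.0019). Tnfrsf19 went from 10.3 and 8.92 CPM to 61.8 and 78.4 (2.86, SE 0.24), and Sp5 from 2.87 and 0.372 to 10.8 and 6.92 (3.06, SE 0.79). For Sp5 the D0 samples were wide apart, and without D0 replicate 2 its log2 fold change was 1.59 and 2 genes of the list were up and 2 down. Nkd2, an antagonist of the pathway, fell by 2.43. Axin2, the most widely used reporter of the pathway, was at 15.1 and 11.8 CPM at D0 and 18.4 and 36.7 at D13 (0.96, SE 0.35, limma adjusted p = 0.054). Lef1, a DNA-binding partner of beta-catenin, had a log2 fold change of -1.82 (SE 0.48), short of the 4-fold minimum.

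In the Notch pathway 3 of 18 genes fell and 0 rose. They were the glycosyltransferase Lfng (-2.91 on the log2 scale), the coactivator Maml1 (-2.57) and the receptor Notch4 (-2.29, and -1.98 without D13 replicate 1, which left 2). Notch1 was at 37.8 and 51.5 CPM at D0 and 37.5 and 75 at D13, where the ranges overlapped. In the retinoid pathway, 4 of 12 genes rose and 2 fell. The receptor Rarg fell from 178 and 136 CPM to 14.9 and 12.9 (log2 fold change -3.49, SE 0.26, limma adjusted p = 4.1e-05), and Rara had a log2 fold change of -1.82. The binding protein Crabp2 fell by 2.25, an effect of -1.42 without D0 replicate 1 and -1.77 without D13 replicate 2. Genes known to be induced by retinoic acid were among the rises: Tgm2, a transglutaminase, went from 6.52 and 6.31 to 65.9 and 52.6 CPM (3.20, SE 0.25). Stra8 went from 0.730 and 1.66 to 11.1 and 7.07 CPM (3.01, SE 0.47), Meis2 from 2.68 and 3.50 to 23.5 and 23.2 CPM (2.93, SE 0.26), and the retinal reductase Dhrs3 rose by 2.16 (1.69 without D0 replicate 2 and 1.78 without D13 replicate 1, with 3 rises in either case). The inducible genes Rarb, Cyp26a1 and Cyp26b1 had no row.

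Of the core pluripotency genes, Pou5f1 and Sox2 were not called and 8 others fell. Pou5f1 (OCT4) was at 982 and 793 CPM at D0 and 1164 and 705 CPM at D13, and its log2 fold change of 0.04 (SE 0.29) was -0.32 without D13 replicate 1. Sox2 was at 451 and 562 CPM at D0 and 318 and 306 CPM at D13 (log2 fold change -0.69, SE 0.22), not called. In the list, 8 of 20 genes fell and 0 rose, with a median log2 fold change of -1.63. L1td1, an RNA-binding protein derived from a LINE1 open reading frame, went from 1038 and 1062 CPM to 42.8 and 55.4 (-4.43, SE 0.23, limma adjusted p = 9.4e-06). Lin28a, which blocks let-7 maturation, went from 652 and 451 CPM to 19.13 and 17.0 (-4.91, SE 0.35). L1td1 and Lin28a were also among the 10 called genes with the largest loss of CPM.

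Of 25 naive pluripotency factors, 5 rose and 1 fell at 4-fold, 11 rose and 2 fell at 2-fold, and the median log2 fold change was 0.67. Tfcp2l1, a transcription factor downstream of LIF and 2i, was at 85.1 and 188 CPM at D0 and 888 and 1465 CPM at D13 (log2 fold change 3.17, SE 0.39, limma adjusted p = 0.00037). Only Scd2, a lipid desaturase, gained more CPM among the called genes. Tbx3 went from 11.4 and 18.1 to 136 and 138 CPM (3.26, SE 0.26), and Dppa3, a maternal-effect protein that restrains DNA methylation, from 27.8 and 71.1 to 401 and 289 CPM (2.94, SE 0.43). The 4-fold count was completed by Prdm14, a repressor of Dnmt3 genes, at 2.43 and Tcl1 at 2.36 (1.67 without D0 replicate 1 and 1.92 without D13 replicate 1). Nanog was at 189 and 216 CPM at D0 and 571 and 477 at D13, a difference of 1.37 (SE 0.22) that passed at 2-fold only. Klf2 was at 113 and 313 CPM at D0 and at 120 and 107 CPM at D13 (-0.73, SE 0.40), and without D0 replicate 2 its log2 fold change was 0.00. The lysosomal beta-mannosidase Manba, listed among naive genes, fell by 2.32 (-1.72 without D0 replicate 2, which left 0 falls).

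The formative and primed epiblast genes were lower in 2i+vitC without exception, the most uniform fall of the 42 lists examined. All 26 had a lower mean at D13, 17 fell at 4-fold, 23 at 2-fold, and the median log2 fold change was -2.71. Leaving out any D0 or D13 sample gave 16 to 20 falls and 0 genes with a higher mean. Sox11 was at 87.8 and 111 CPM at D0 and 1.5 and 0.966 CPM at D13 (log2 fold change -6.36, SE 0.61, limma adjusted p = 0.00011). Lin28b went from 116 and 83.5 to 1.56 and 4.03 CPM (-5.29, SE 0.43), and the epiblast POU factor Pou3f1 from 60.0 and 21.8 to 1.45 and 0.620 CPM (-5.25, SE 0.61). Otx2, which drives the exit from naive pluripotency, was at 53 and 103 CPM at D0 and at 26.4 and 22.0 CPM at D13 (-1.62, SE 0.32), a 2-fold but not a 4-fold fall. Together the list held 3046 and 2543 CPM at D0 against 508 and 606 at D13. It shares 11 genes, among them Dusp6 and Dnmt3b, with other lists described here.

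**Figure D2:**
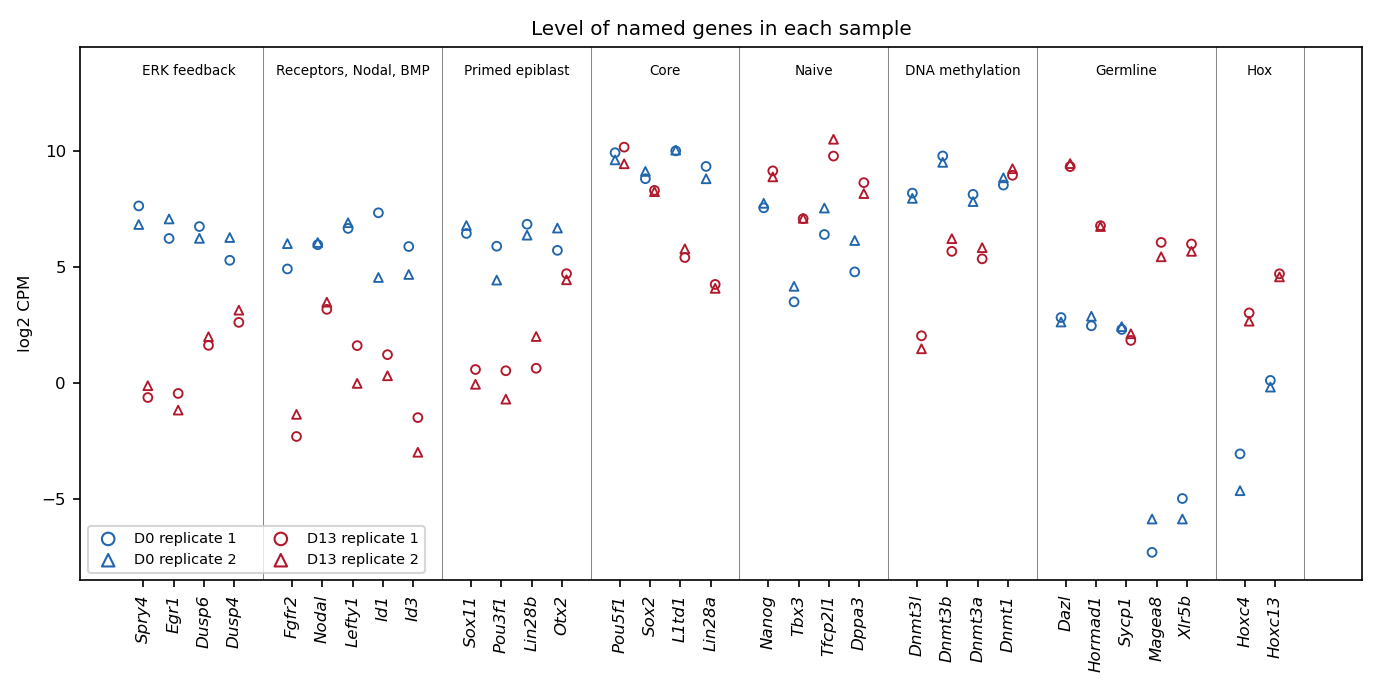
Log2 CPM (y axis) of 32 named genes in each sample, with D0 samples in blue and D13 samples in red, circles for replicate 1 and triangles for replicate 2. ERK feedback and primed epiblast genes lie lower at D13, Pou5f1 samples overlap, Tbx3, Tfcp2l1 and Dppa3 higher, and the germline genes Dazl, Magea8 and Xlr5b well above their D0 levels.

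Differentiation genes did not give a uniform picture. Many had no row: 13 of 31 in the primitive endoderm list, 9 of 29 in the trophoblast list and 18 of 26 in the primitive streak and mesoderm list. A gene read in serum alone had no row, so that falls of such genes could not be seen. Of 18 primitive endoderm genes 5 fell and 0 rose: the basement membrane chains Col4a1 (-5.33 on the log2 scale), Col4a2 (-4.01) and Lamb1 (-3.26) and the endocytic genes Dab2 (-4.66) and Lrp2 (-4.24). Lrp2 was at 192 and 191 CPM at D0 and 6.43 and 15.9 at D13. Sox17, a determinant of that lineage, was near 1 CPM in all 4 samples. In this list 1 gene rose without D0 replicate 1, 3 rose without D0 replicate 2, and without D13 replicate 2, 2 rose and 6 fell. In the trophoblast list 6 of 20 fell and 3 rose, with the imprinted Peg10 (-6.00), the keratin Krt19 (-4.10) and the imprinted Phlda2 (-3.94) lowest. The rises were Tfap2a (2.31), Tinagl1 (2.20) and Ly6e (2.14), of which Tfap2a alone remained without D13 replicate 1. Of 8 primitive streak and mesoderm genes limma called 0, with 1 at an unadjusted p under 0.05, and 1 fell without D0 replicate 2 or with only the 4 samples of D0 and D13 in the fit. Eomes, a T-box factor of that lineage, was at 5.41 and 3.72 CPM at D0 and 3.35 and 3.27 at D13.

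Neural genes were called in both directions, with 3 of 14 up and 2 down. These were 21.4% and 14.3%, against 7.45% and 6.01% of all genes, and 14 more genes of the list had no row. Of the 3 that rose, Lhx2 and Pou3f2 were under 1 CPM in both D0 samples and had a row only through D6 and D13. The count of rises was not separated from the table filter. Lhx2, a LIM homeobox gene, was at 0.590 and 0.258 CPM at D0 and 5.71 and 4.6 at D13 (log2 fold change 3.72, SE 0.48), and Pou3f2 at 0.615 and 0.281 CPM at D0 and 6.01 and 3.20 at D13 (3.40, SE 0.53). The adhesion molecule Ncam1 went from 4.69 and 8.58 to 32.7 and 25.5 CPM (2.19, and 1.75 without D0 replicate 1). The neuronal genes Neurod1 and Map2 fell by 2.68 and 2.57, and both calls were lost without D13 replicate 1 (-1.72 and -1.95). Without D13 replicate 2, 5 neural genes rose. Hox genes, which pattern the body axis and are Polycomb targets in ES cells, had a row in 8 of 39 cases, of which 5 rose and 0 fell, with a median log2 fold change of 3.66. Of the 5 that rose, 4 were under 1 CPM in both D0 samples and had a row only through D6 and D13, so that the direction of their count was set by the table filter. Hoxc13 was at 1.08 and 0.888 CPM at D0 and 26.3 and 24 at D13 (4.68, SE 0.29, limma adjusted p = 2e-05). Hoxc4 was counted with 9 and 3 reads at D0 and 583 and 478 at D13 (6.70, SE 0.57). Hoxc12 had 1 and 0 reads at D0 and 128 and 133 at D13, a ratio of 296 with a 95% counting interval of 52.6 to 11725. Hoxb13 and Hoxd9 rose by 3.84 and 3.48. Except for Hoxc13, all D13 levels given here stayed under 10 CPM.

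Genes of the germline formed the largest rises. Many germline genes have CpG-rich promoters that are methylated in somatic cells. For the X-linked families described below, 31 promoter windows had a median of 7 CpGs. The median was 21 for the 9094 genes of this comparison with a window and 7 for all 32851 promoter windows. A link of CpG number with the rises was not tested. The windows of 4 germline genes are shown to set the promoters of called genes (Dazl, Hormad1) beside that of a gene that was not called (Sycp1) and a CpG-poorer X-linked one (Magea8). Each runs from 250 bases before to 50 bases after the RefSeq start on build GRCm38.p6, 5′ to 3′ on the gene's strand, with CpG dinucleotides and the E-box CACGTG in capitals.
Dazl: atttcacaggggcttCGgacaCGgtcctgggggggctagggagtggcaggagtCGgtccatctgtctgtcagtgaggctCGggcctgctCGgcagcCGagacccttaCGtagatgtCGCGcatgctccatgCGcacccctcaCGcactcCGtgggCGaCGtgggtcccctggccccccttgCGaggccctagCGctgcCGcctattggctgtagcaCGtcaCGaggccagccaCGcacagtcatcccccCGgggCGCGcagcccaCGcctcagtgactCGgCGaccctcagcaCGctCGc
Hormad1: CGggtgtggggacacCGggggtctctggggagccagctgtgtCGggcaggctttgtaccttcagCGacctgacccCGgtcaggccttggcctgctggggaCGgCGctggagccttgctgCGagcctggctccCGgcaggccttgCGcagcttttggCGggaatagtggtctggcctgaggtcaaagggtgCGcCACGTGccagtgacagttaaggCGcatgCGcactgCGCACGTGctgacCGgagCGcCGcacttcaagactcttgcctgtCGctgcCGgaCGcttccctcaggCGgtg
Sycp1: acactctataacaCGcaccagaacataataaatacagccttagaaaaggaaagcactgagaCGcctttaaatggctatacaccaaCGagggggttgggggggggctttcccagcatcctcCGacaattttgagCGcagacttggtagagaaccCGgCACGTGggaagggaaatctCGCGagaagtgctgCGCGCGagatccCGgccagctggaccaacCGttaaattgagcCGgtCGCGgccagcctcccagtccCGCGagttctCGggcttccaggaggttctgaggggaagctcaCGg
Magea8: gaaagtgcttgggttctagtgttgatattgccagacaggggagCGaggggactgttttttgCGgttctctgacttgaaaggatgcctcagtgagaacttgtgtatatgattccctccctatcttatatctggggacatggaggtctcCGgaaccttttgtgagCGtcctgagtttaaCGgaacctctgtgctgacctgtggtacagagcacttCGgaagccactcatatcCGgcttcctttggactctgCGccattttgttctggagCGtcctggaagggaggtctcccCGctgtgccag

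The Dazl window (chr17:50293571-50293870, minus strand) held 28 CpGs and 0 matches to CACGTG. The Hormad1 window (chr3:95559427-95559726, plus strand) held 24 CpGs and 2 matches, that of Sycp1 (chr3:102936051-102936350, minus strand) 21 CpGs and 1 match, and that of Magea8 (chrX:154995801-154996100, minus strand) 10 CpGs and 0 matches. CACGTG reads the same on both strands and was found in 7.15% of all 32851 windows of the promoter table, whose median was 7 CpGs. Among the 9094 windows of genes in this comparison the median was 21 CpGs and 10.5% held the motif, so that Sycp1 lay at the median, Hormad1 and Dazl above it and Magea8 below. Neither CpG number nor this motif set Sycp1, which was not called, apart from the called genes shown. A comparison of promoter features over all called genes was void, since 631 of the 941 genes that rose had a window, under the 80% set as the minimum.

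Of 23 genes of germ cell identity and transposon defence, 8 rose and 1 fell, with a median log2 fold change of 1.26. Dazl, an RNA-binding protein required for germ cells, was counted with 560 and 542 reads at D0 and 46354 and 53214 at D13. In CPM it went from 7.11 and 6.22 to 648 and 709, a log2 fold change of 6.67 (SE 0.20, limma adjusted p = 2.1e-06), with replicates close on either day. Fkbp6 and Asz1 act in the piRNA pathway, which silences transposons in the male germline. Fkbp6 went from 1.57 and 3.00 to 210 and 143 CPM (6.32, SE 0.34), and Asz1 from 0.209 and 0.281 to 6.94 and 7.39 CPM (4.88, SE 0.38). Tdrd5, of the same pathway, fell from 9.78 and 10.4 to 0.958 and 1.30 CPM (-3.18, SE 0.36). Ddx4 (VASA), a pan-germ-cell helicase, was at 41.2 and 18.3 CPM at D0 and 15.0 and 22.0 CPM at D13, where the ranges overlapped. The germ cell list was therefore raised in part, with Dazl far above and Ddx4 not above its serum level.

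The meiotic list was more restricted, with 4 of 25 genes up, 0 down and a median log2 fold change of 0.74. Smc1b, a meiotic cohesin, went from 1.24 and 11.2 to 117 and 140 CPM (log2 fold change 5.10, SE 0.80, limma adjusted p = 0.0014). The chromosome axis proteins Hormad1 and Hormad2 went from 5.55 and 7.38 to 111 and 108 CPM (4.09, SE 0.23) and from 1.52 and 5.49 to 34.5 and 33.4 CPM (3.56, SE 0.51). Stra8, the retinoic acid-responsive gatekeeper of meiosis, completed the 4 rises. The synaptonemal complex genes Sycp1 (4.98 and 5.41 CPM at D0, 3.59 and 4.38 at D13) and Sycp2 (3.42 and 3.72 at D0, 1.43 and 3.20 at D13) were not called. Without D0 replicate 2, in which Smc1b and Hormad2 were higher than in replicate 1, 8 meiotic genes rose.

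The multicopy X-linked germline and placenta families were the list with the highest median log2 fold change, 6.79, with 29 of 37 genes up and 0 down. Most of them were under 1 CPM in both D0 samples and had a row only through D6 and D13, so that their count is no support for a rise. Magea8, a melanoma antigen family member read in testis and tumours, had 0 and 1 reads at D0 and 4803 and 3278 at D13, a ratio of 9157 with a 95% counting interval of 1643 to 361712. Magea2 had 0 reads in either D0 sample and 1317 and 1087 at D13, at least 908-fold higher against a floor of 3 reads over both D0 samples. Xlr5b, of the X-linked lymphocyte-regulated family, had 2 and 1 reads at D0 and 4581 and 3862 at D13, a ratio of 3189 (95% counting interval 1091 to 15467). The intervals cover counting error only. Rhox2g, of the reproductive homeobox cluster, had 0 and 0 reads at D0 and 310 and 341 at D13, at least 246-fold higher. Esx1, another X-linked homeobox gene, was at 1.21 and 0.945 CPM at D0 and 4.62 and 2.31 at D13 and was not called. Copies of Magea, Xlr and Rhox2 are near-identical, and how their reads were split between copies is uncertain. At their bounds, the list median was 6.76.

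The rises lay side by side on the X chromosome. In the order of all genes with a position, 10 neighbours from Rhox1 to Rhox5 (chrX:37213804-37808878), 6 from Xlr4a to Xlr4b (chrX:73074343-73222453) and 6 from Magea6 to Sat1 (chrX:154923895-155216449) were all called up. The last member, Sat1, a polyamine acetyltransferase, is not of the Magea family. In all, 12.4% of 429 X-linked genes rose, against 7.21% of 11352 genes with a position, and 8.62% fell, against 5.95%. Of the 53 X-linked genes that rose, 35 were under 1 CPM in both D0 samples and had a row through later days, and of the 392 X-linked genes above that level in a D0 sample 18 rose and 37 fell. In the Pramel family, 4 of 7 genes rose and 0 fell. All 4 were under 1 CPM in both D0 samples, and of the other 3 genes 0 were called, so that this count too was set by the table filter. Pramel3 went from 2 and 7 reads to 353 and 677 (log2 fold change 7.0, SE 0.58), Pramef17 from 0 and 5 reads to 358 and 303 (7.82, SE 0.91), and Pramel6 from 0.958 and 0.189 CPM to 7.17 and 5.38 (3.87, SE 0.65). Pramel7 rose by 2.70. Of 7 genes of the 2-cell stage, 3 fell and 0 rose, all copies of Zscan4. Zscan4c was at 4.19 and 3.37 CPM at D0 and 0.203 and 0.180 at D13 (-4.30, SE 0.45), and reads of Zscan4c, Zscan4d and Zscan4f may be split between copies.

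The 3 genes of de novo DNA methylation fell, and the maintenance enzyme was not called. Dnmt3l, the catalytically inactive cofactor, was at 294 and 251 CPM at D0 and 4.12 and 2.79 at D13 (log2 fold change -6.32, SE 0.39, limma adjusted p = 2e-05). Dnmt3b went from 891 and 736 to 51.4 and 75.2 CPM (-3.70, SE 0.31), and Dnmt3a from 283 and 228 to 41.1 and 57.4 CPM (-2.39, SE 0.25). Dnmt1 was at 373 and 464 CPM at D0 and 500 and 609 CPM at D13 (0.41, SE 0.23, limma adjusted p = 0.18). Of 23 genes of DNA methylation, oxidation and reading 3 fell and 0 rose, and without D13 replicate 2 the falls were 4. Of 30 genes of H3K9 methylation and KAP1 silencing limma called 0 at 4-fold, with 14 at an unadjusted p under 0.05, and at 2-fold 0 rose and 4 fell, with a higher mean at D13 for 6 of 30. Setdb1, the H3K9 methyltransferase of that pathway, was at 176 and 176 CPM at D0 and 140 and 191 at D13. The log2 fold changes of this list ran from -1.22 to 0.28.

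Of 39 Polycomb genes 2 fell and 2 rose, or 5.13% each way, below the shares of all genes (6.01% down and 7.45% up). Phc1, a subunit of Polycomb repressive complex 1, went from 622 and 996 to 133 and 146 CPM (log2 fold change -2.50, SE 0.27), and Jarid2, which recruits Polycomb repressive complex 2, from 749 and 871 to 138 and 162 CPM (-2.43, SE 0.21, limma adjusted p = 7.3e-05). The chromodomain gene Cbx8 rose by 2.05, from 1.67 and 0.659 CPM at D0 to 4.83 and 3.91 at D13. Its log2 fold change was 1.38 without D0 replicate 2, where 0 genes of the list rose. The catalytic Ezh2 was at 196 and 200 CPM at D0 and 260 and 240 at D13, not called. Without D13 replicate 1, 1 gene of the list rose.

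Imprinted genes fell more often than they rose, with 10 of 33 down, 1 up and a median log2 fold change of -0.95. Without D0 replicate 1, D0 replicate 2 or D13 replicate 1, 2 rose. H19 was at 52.0 and 10.3 CPM at D0 and 0.566 and 0.260 at D13 (log2 fold change -5.92, SE 0.86, limma adjusted p = 0.00094), and its neighbour Igf2, a fetal growth factor, at 107 and 27.2 CPM at D0 and 3.50 and 1.71 at D13 (-4.46, SE 0.66). Nnat went from 51.0 and 14.1 to 0.552 and 0.246 CPM (-6.18, SE 0.74), and the retrotransposon-derived Peg10 from 900 and 338 to 7.28 and 10.2 CPM (-6.00, SE 0.42). For each of these 4 genes D0 replicate 1 was above D0 replicate 2, and either was above both D13 samples. Plagl1, a zinc finger gene, rose from 16.2 and 6.91 to 102 and 150 CPM (3.55, SE 0.39). H19 and Igf2, which are oppositely imprinted, fell together. Peg10 lay in a run of 4 neighbours that all fell, Col1a2, Casd1, Sgce and Peg10 (chr6:4505618-4760517).

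Mitochondrial genes were shifted up by small steps. Of 79 genes of the respiratory chain 78 had a higher mean at D13, the median log2 fold change was 0.83, 28 rose at 2-fold and 0 fell, while 4 rose at 4-fold (5.06%, against 7.45% of all genes). These were Ndufb4 (2.08, and 1.76 without D13 replicate 1) and 3 tissue-restricted cytochrome oxidase subunits: Cox7b2 (1.12 and 1.20 CPM at D0, 31.6 and 20.3 at D13, log2 fold change 4.45), Cox6b2 (7.57 and 5.71, then 91.6 and 54.5, 3.43) and Cox7a1 (3.76 and 4.11, then 29.9 and 14, 2.38). Atp5b, a catalytic subunit of ATP synthase, was at 1899.9 and 1938 CPM at D0 and 3321 and 2610.5 at D13 (0.62, SE 0.26), not called. Summed over the list, CPM was 10800 and 9248 at D0 and 19700 and 14390 at D13, 1.70 times as high. Without D13 replicate 1 the median was 0.57 with 76 of 79 genes higher and 2 called. In the tricarboxylic acid cycle 3 of 22 rose, the isocitrate dehydrogenases Idh2 (2.21) and Idh1 (2.01) and the malic enzyme Me1 (2.09), and 19 had a higher mean. Those 3 lay close to the 4-fold minimum, and 1 was called without D0 replicate 2 or without D13 replicate 1.

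Glycolytic genes were called in both directions, with 2 of 26 up and 2 down, or 7.69% each way, near the shares of all genes (7.45% up and 6.01% down). Hexokinase Hk1 rose from 25.1 and 49.5 to 408 and 408 CPM (log2 fold change 3.53, SE 0.30, limma adjusted p = 7.1e-05), whereas Hk2 was at 259 and 142 CPM at D0 and 310 and 341 at D13. The lactate dehydrogenase subunit Ldhb went from 66.2 and 256 to 1006 and 783 CPM (2.77, SE 0.53, and 1.79 without D0 replicate 1, which left 1 rise; 3 rose without D0 replicate 2). The lactate exporter Slc16a3 went from 144 and 61.6 to 8.16 and 8.08 CPM (-3.53, SE 0.50), and Pdk1, which inhibits entry of pyruvate into mitochondria, from 206 and 291 to 24.8 and 25.1 CPM (-3.30, SE 0.25). No flux was measured.

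Lipid genes rose in part. Of 22 fatty acid genes 5 rose and 0 fell, namely Fabp3, Scd1, Scd2, Cpt1a and Fads1 (2.08, and 1.93 without D13 replicate 1). The desaturase Scd1 went from 90.3 and 29.2 to 534 and 558 CPM (log2 fold change 3.41, SE 0.44), and Scd2 from 542 and 174 to 1569 and 1580.0 CPM (2.36, SE 0.45). The fatty acid carrier Fabp3 went from 21.5 and 83.9 to 681 and 460 CPM (3.72, SE 0.56), and the carnitine transferase Cpt1a, the entry step of oxidation, from 19.3 and 64.1 to 177 and 192 CPM (2.39, SE 0.46). The call was lost for Scd2 without D0 replicate 2 (1.54) and for Cpt1a without D0 replicate 1 (1.53). Fasn, the fatty acid synthase, was at 896 and 486 CPM at D0 and 249 and 368 at D13 (-1.13, SE 0.34), so that desaturation and synthesis did not move alike. Of 25 cholesterol genes 2 rose, Insig1 (2.27) and Tm7sf2 (2.08), or 8%, near the 7.45% of all genes, and 9 rose at 2-fold. This count rested on the D0 samples, whose summed CPM was 2153 and 1055, against 2894 and 2893 at D13. It was 6 up without D0 replicate 1, 1 up without D13 replicate 1, 3 up without D13 replicate 2, and 0 up with 1 down without D0 replicate 2.

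**Figure D3:**
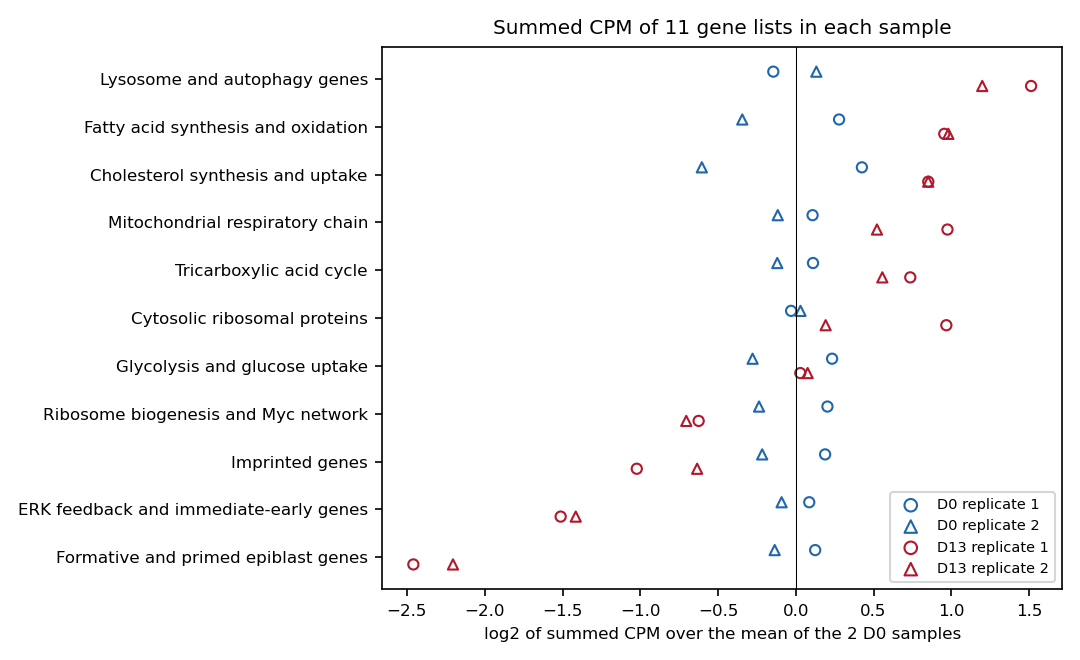
Log2 ratio of the summed CPM of 11 gene lists in each sample to the mean of the 2 D0 samples (x axis), with D0 in blue, D13 in red, circles for replicate 1 and triangles for replicate 2. Lysosome and fatty acid lists lie above 0 in both D13 samples, epiblast and ERK lists below, and for ribosomal proteins D13 replicate 1 alone lies far to the right.

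Of 25 lysosomal genes, 6 rose at 4-fold, 16 at 2-fold and 0 fell, with a median log2 fold change of 1.20, and the summed CPM was 2085 and 2526 at D0 and 6578 and 5291 at D13. Cathepsin C (Ctsc) went from 14.9 and 13 to 211 and 129 CPM (3.57, SE 0.38, limma adjusted p = 0.0002), and Hexa, a subunit of beta-hexosaminidase, from 25.7 and 54.8 to 421 and 242 CPM (3.09, SE 0.42). Mitf, a transcription factor of lysosomal and melanocyte genes, went from 4.36 and 8.05 to 55.9 and 73.6 CPM (3.44, SE 0.31). Its relatives Tfeb and Tfe3 had log2 fold changes of 1.20 and -0.76. Psap, the precursor of lysosomal sphingolipid activators, was among the 10 largest gains of CPM over the called genes, from 149 and 206 to 895 and 623 (2.09, SE 0.28), 1.86 without D0 replicate 1 and 1.83 without D13 replicate 1. Leaving out any D0 or D13 sample gave 5 to 7 rises in the list and 0 falls.

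Amino acid genes varied between the D0 samples. Of 27 genes, 3 rose and 0 fell: the asparagine synthetase Asns (112 and 395 CPM at D0, 1009.5 and 791 at D13, log2 fold change 2.09), Cth (2.23) and Cbs (2.02) of transsulfuration. Without D0 replicate 2 this count was 6 up, without D0 replicate 1 it was 2 up and 2 down, and without D13 replicate 1 it was 1 up. Asns alone had a log2 fold change of 1.18 without D0 replicate 1. Mat2a, which makes S-adenosylmethionine, was among the 10 largest losses of CPM, from 763 and 1830 to 104 and 129 (-3.35, SE 0.37, limma adjusted p = 0.00024). The glutamine and alanine carrier Slc38a2 went from 800 and 779 to 71.3 and 104 CPM (-3.20, SE 0.25). Both lay far below their serum level in each D13 sample.

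Cytosolic ribosomal protein genes had higher means at D13 for 77 of 79, with a median log2 fold change of 0.63, but the 2 D13 samples differed. Their summed CPM was 51270 and 53460 at D0, 102400 in D13 replicate 1 and 59800 in D13 replicate 2, and without D13 replicate 1 the median was 0.21 with 67 of 79 higher. The part of that sample in the difference was not tested. The 2 genes called, Rpl39l and Rpl10l, are paralogs known from testis: Rpl39l went from 10 and 11.3 to 236 and 139 CPM (log2 fold change 4.09, SE 0.27) and Rpl10l from 18.4 and 25.1 to 250 and 132 CPM (3.08, SE 0.31). Ribosome biogenesis genes of the Myc network went the other way, with 24 of 29 lower, 8 down at 2-fold and 0 up. Only Myc and Mycn fell at 4-fold in that list, Mycn from 410 and 386 to 51.7 and 59.2 CPM (-2.85, SE 0.21, limma adjusted p = 3.4e-05). The heat shock list gave 2 rises and 1 fall of 24, or 8.33% and 4.17%, against 7.45% and 6.01% of all genes. Hspb8 rose from 14.9 and 25.6 to 175 and 152 CPM (3.06), but Hspa1a was at 3.10 and 2.82 CPM at D0, 36.6 in D13 replicate 1 and 5.62 in D13 replicate 2, and its log2 fold change of 2.28 was 0.92 without D13 replicate 1. Hspa4l fell by 2.03, and its log2 fold change was -1.85 without the same sample, which left 1 rise and 0 falls in the list. Without D0 replicate 1 the list gave 1 rise and 0 falls, and without D0 replicate 2 it gave 1 of each.

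Tagln, an actin-binding protein and target of SRF, had the largest fall of all called genes, from 79.5 and 30.3 CPM to 0.608 and 0.0866 (log2 fold change -7.74, SE 0.84, limma adjusted p = 0.00021). Of 22 targets of SRF and YAP, 4 fell at 4-fold, 11 at 2-fold and 0 rose at 4-fold, and the other falls were Anxa1 (-3.09), Zyx (-2.19) and Ctgf (-2.01, and -1.41 without D13 replicate 2). The 4-fold count was 2 without D0 replicate 1, 6 without D0 replicate 2, 7 without D13 replicate 1 and 2 without D13 replicate 2. Actb was at 2355 and 1609.8 CPM at D0 and 1830.0 and 1116 CPM at D13 (-0.45, SE 0.32), not called. Among 36 integrins, cadherins, claudins and keratins 9 fell and 0 rose (1 rose without D0 replicate 2), 6 rose and 13 fell at 2-fold, and 16 had a higher mean at D13. At the lower end were Itga9 (9.57 and 21.9 CPM at D0, 0.385 and 0.340 at D13, -5.32) and the mesenchymal cadherin Cdh2 (28.2 and 8.64, then 0.846 and 1.11, -4.01). The epithelial Cdh1 was at 868 and 1021 CPM at D0 and 1300.4 and 1222 at D13 (0.42, SE 0.23), not called.

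The extracellular matrix list split, with 7 of 47 down and 6 up. The type IV collagen chains of basement membranes fell, Col4a1 from 81.7 and 126 to 2.08 and 3.07 CPM (-5.33, SE 0.57) and Col4a2 from 35.8 and 60.2 to 3.07 and 2.68 (-4.01, SE 0.51). Col18a1 fell from 462 and 469 to 65.0 and 88.4 CPM (-2.62, SE 0.24). Another basement membrane component, nidogen (Nid1), rose from 68.3 and 90.8 to 526 and 727 CPM (2.97, SE 0.25, limma adjusted p = 6.1e-05), as did the fibulins Fbln1, from 15.4 and 15.7 to 198 and 147 CPM (3.45, SE 0.23), and Fbln5 (4.90, SE 0.64). Col1a2, also a fibroblast marker, was at 4.61 and 3.08 CPM at D0 and 0.594 and 0.113 at D13. Basement membrane genes therefore moved in opposite directions.

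Of 35 cell cycle regulators, 3 rose and 5 fell, and the 3 that rose encode inhibitors of cyclin-dependent kinases: Cdkn1a (p21) from 33.6 and 33.4 to 277 and 274 CPM (log2 fold change 3.04, SE 0.19, limma adjusted p = 2.2e-05), Cdkn2a from 6.71 and 3.25 to 45.8 and 32.0 CPM (3.04, SE 0.37) and Cdkn2c from 0.476 and 0.475 to 4.85 and 3.32 CPM (3.08, SE 0.40). Cdkn2c was under 1 CPM in both D0 samples and had a row only through D6 and D13, so that its rise was not separated from the table filter. A further inhibitor, the imprinted Cdkn1c, fell from 76.9 and 16.9 to 2.75 and 2.09 CPM (-3.91, SE 0.61). Ccnd2 fell from 43.8 and 7.05 to 0.469 and 0.246 CPM (-5.69, SE 1.08), the repressor E2f7 by 2.87, E2f8 by 2.57 and E2f3 by 2.48. Ccnd1, a target of ERK in many cells, was at 199 and 118 CPM at D0 and 224 and 187 CPM at D13, where the ranges overlapped. Of 26 p53 targets and apoptosis genes, Cdkn1a rose and Bcl2l11 (BIM) fell from 79.6 and 66.4 to 9.39 and 11.8 CPM (-2.79, SE 0.25), and 2 fell without either D0 sample. Rises and falls made up 8.57% and 14.3% of the cell cycle list, against 7.45% and 6.01% of all genes. In the p53 list they were 3.85% each, below those shares. Mdm2, a p53 target, was at 213 and 156 CPM at D0 and 169 and 236 at D13, not called. The rise of Cdkn1a thus came without a call for Mdm2.

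Among 27 interferon and nucleic acid sensing genes, 3 fell and 1 rose, or 2 without D0 replicate 1 or D13 replicate 1. The RNA sensor Ddx58 (RIG-I) fell from 31.1 and 39.0 to 3.94 and 5.75 CPM (log2 fold change -2.87, SE 0.33, limma adjusted p = 0.00028), and the interferon-stimulated Ifit2 and Oasl2 by 4.64 and 3.92. The GTPase Irgm1, among the 10 largest falls, differed between D0 samples, with 45.5 and 6.58 CPM at D0 and 0.147 and 0.153 at D13. Oas1a rose from 2.75 and 2.53 to 51.0 and 35.7 CPM (4.02, SE 0.27). Among 21 hypoxia-inducible genes 3 fell and 1 rose, with 0 rises without either D13 sample and 2 falls without D0 replicate 1 or D13 replicate 1. Vegfa rose by 2.62 (6.76 and 34.1 CPM at D0, 82.7 and 105 at D13), and 1.45 without D0 replicate 1. The falls were Pdk1, Arnt2 (-2.86) and Epas1 (-2.07, and -1.94 without D13 replicate 1). Of 23 antioxidant and iron genes 2 fell and 0 rose (2 rose without D0 replicate 2 and 1 without any other D0 or D13 sample), the iron exporter Slc40a1 (15.9 and 6.53 CPM at D0, 0.874 and 1.10 at D13, -3.38) and Slc23a1, a vitamin C transporter, from 20.3 and 26.5 to 2.75 and 2.75 CPM (-3.07, SE 0.31, limma adjusted p = 0.00014). Slc23a2, the other vitamin C transporter of the list, was not called, and a link of Slc23a1 with the vitamin C in the medium was not tested. Falls made up 11.1% of the interferon list, 14.3% of the hypoxia list and 8.7% of the antioxidant list, against 6.01% of all genes. Rises made up 3.7% of the interferon list and 4.76% of the hypoxia list, against 7.45% of all genes.

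**Figure D4:**
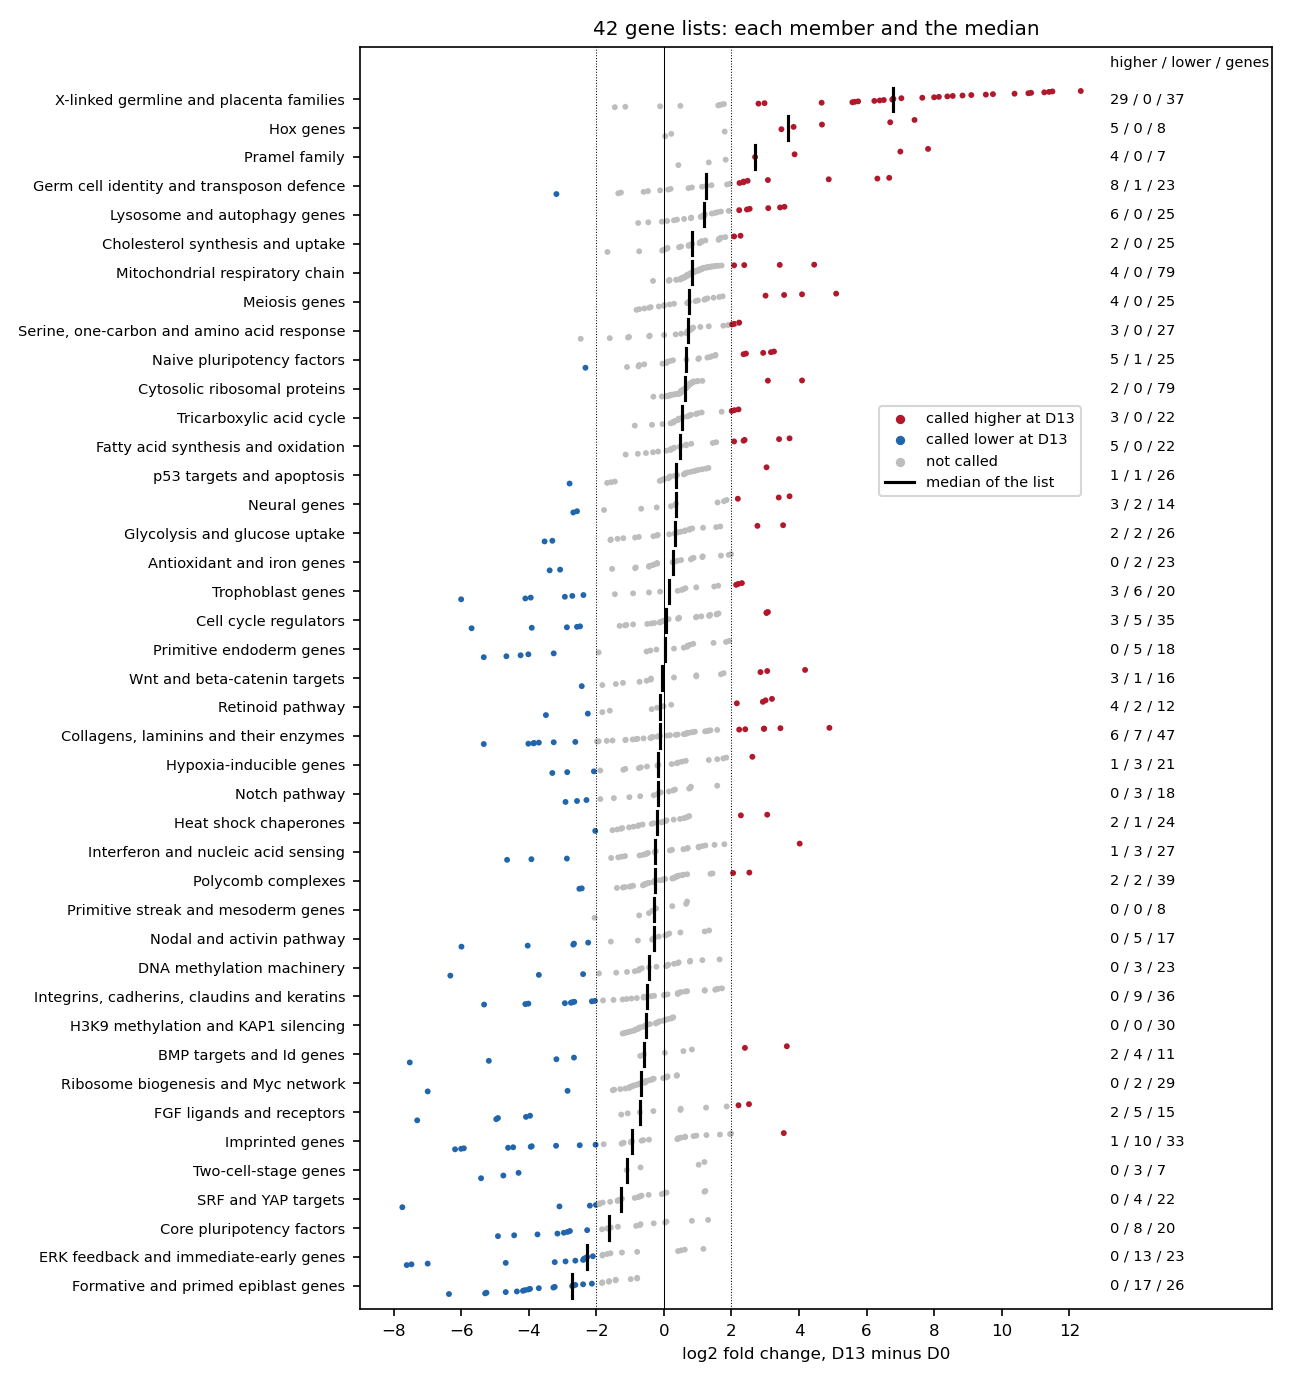
Log2 fold change, D13 minus D0 (x axis), of each member of 42 gene lists, with called genes in red or blue, others in grey and the median as a black bar; numbers at the right give genes called higher, called lower and measured. Medians range from -2.71 for the formative and primed epiblast list to 6.79 for the X-linked families, and dotted lines mark a 4-fold difference.

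Outside the lists, Foxp1, a forkhead factor with a splice form specific to ES cells, fell from 143 and 164 to 1.07 and 1.06 CPM (log2 fold change -7.17, SE 0.32, limma adjusted p = 5.7e-06), with near-identical values in both samples of either day. Myrf, a membrane-bound transcription factor, went from 111 and 112 to 1.18 and 1.11 CPM (-6.61, SE 0.37), and Enox1 from 51.1 and 44.0 to 0.385 and 0.593 (-6.63, SE 0.53). Trh, the precursor of thyrotropin-releasing hormone, was among the largest losses of CPM, from 584 and 229 to 15.7 and 14.3 (-4.61, SE 0.47). Among the gains, Spp1 (osteopontin) went from 154 and 211 to 1227 and 880 CPM (2.53, SE 0.26), and the creatine kinase Ckb from 140 and 120 to 1061 and 538 CPM (2.55, SE 0.32). The uncharacterized 1700013H16Rik went from 21 and 14 reads at D0 to 14574 and 11721 at D13 (9.71, SE 0.31, limma adjusted p = 2.1e-06), the smallest p of the comparison together with Dazl. In this set each D0 sample lay on the same side of both D13 samples, as in every called gene, which adds no support.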

How the data were processed

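RNA-seq had been performed on J1 ES cells with a strand-specific poly(A) kit, with 2 samples labelled as biological replicates on each of 3 days. The submitters' processing notes and methods name TopHat2 2.0.6, Bowtie 1.0.0, HTSeq 0.6.1 and build mm10; the strand setting of the counting was not given in the sources used here. The deposited gene and transposon family values are log2 CPM, which the authors computed with limma's voom after TMM scaling of the counts. Whole reads were recovered from the values alone, with voom's offset of 0.5 reads. The CPM worth of a read in each sample was inferred from the even steps between low gene values. Reads served to describe genes near 0, not for a test.

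The D13 minus D0 contrast was fitted with limma 3.58.1 (R 4.3.3) as a linear model on the log2 values of all 6 samples, with a mean-variance trend and Benjamini-Hochberg adjustment over 12626 genes and 302 transposon families. A gene was called at a log2 fold change beyond 2 and an adjusted p under 0.05. An exact permutation of 2 against 2 samples cannot go below p = 0.333, so single genes rest on the spread pooled by limma. The fit was also run on simulated data in which 200 genes were changed by 3 on the log2 scale. It called 100% of them and 0 others. That change lies beyond the minimum of 2, and the rate of wrong calls at the spread between the replicates of this series was not tested. Python 3.11.15 with pandas 2.3.3, numpy 2.4.6 and matplotlib 3.10.9 made the summaries and plots.

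The comparison, its 42 gene lists and the rules were chosen with earlier results of these data known. Named were, from each list, up to 3 genes called in each direction with the largest log2 fold change and the first 2 with a row, and over all genes the 10 called in each direction with the largest log2 fold change and with the largest CPM difference. Genes outside this rule complete a count or serve as a well-known reference, and were chosen after their values were seen. Of the row names, 464 start with a lower-case letter, 29 are incomplete and 44 are shared, so that 12133 could be matched to lists; no name starts with a capital G. Near-identical copies may share reads. The alternatives were a fit of 4 samples, a replicate block, leaving out each sample, a filter of 10 reads, a 2-fold minimum, an adjusted p under 0.01, genes without transposon families, voom weights, no trend, median centring and quantile normalization. The labels give same-numbered samples a replicate number only, and whether they were paired is not known. Some genes that the rule names are not reported here.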

Additional observations from a re-analysis of the deposited data

How the results depend on the processing

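The counts of 941 genes up and 759 down moved by over 1.5 times only with a 2-fold minimum, which gave 2098 up and 2059 down. Leaving out 1 sample gave 833 to 1090 up and 656 to 942 down. With the replicate number as a block, 948 rose and 762 fell. The deviations of same-numbered samples correlated at -0.13 (D0 with D6), 0.329 (D13 with D6) and 0.137 (D13 with D0). These values cannot settle whether same-numbered samples were paired. The block moved the list counts of mesoderm genes down from 0 to 1 and of amino acid genes down from 0 to 1, with 4 of the latter up. Of 216 named genes, 158 were called, and 30 of them lost the call in at least 1 of 16 settings, in each case on leaving out a sample. The log2 fold change took either sign on leaving out 1 D0 or D13 sample for 11 genes: Pou5f1 (-0.32 to 0.40, and -0.12 without D0 replicate 2), Sox17 (-0.14 to 0.73), Cdh11 (-0.11 to 0.14, and -0.05 without D0 replicate 1), Klf2 (-1.47 to 0.00), Agrn (-0.43 to 0.20), Col11a1 (-0.02 to 0.71), Mdm2 (-0.11 to 0.38, and -0.09 without D0 replicate 2), Ccng1 (-0.04 to 0.81), Setdb1 (-0.34 to 0.11), Hspa1b (-0.48 to 1.90) and Notch1 (-0.24 to 0.77). Quantile normalization gave -0.30 for Sox17 and -0.14 for Pou5f1. None of these genes was called, and the cause was not tested. At 2 samples a day, and with 3 reads worth 0.0344 to 0.0420 CPM, levels near 0 at D0 give folds of wide interval.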

Other observations

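The Y chromosome, which no list covered, was looked at after the values had been seen. Of its 8 genes with a row, 5 rose, or 62.5%, against 7.21% of 11352 genes with a position. Kdm5d, a histone demethylase, was counted with 50 and 143 reads at D0 and 2358 and 3546 at D13 (log2 fold change 5.27, limma adjusted p = 6e-05). Uba1y, a ubiquitin-activating enzyme, had 1174 and 1995 reads at D0 and 16050 and 18977 at D13 (3.69), and Usp9y, a ubiquitin protease, 51 and 73 at D0 and 857 and 1511 at D13 (4.39). The zinc finger genes Zfy1 and Zfy2 rose by 2.45 and 3.78, of which Zfy1 varied widely between replicates (77 and 558 reads at D0, 489 and 2056 at D13; limma adjusted p = 0.046). The other 3, Ddx3y (0.46), Eif2s3y (0.49) and Uty (-0.67), were not called. Usp9y was under 1 CPM in both D0 samples and had a row only through later days. The count of 5 rises was not separated from the table filter. Genes of this chromosome thus differed in their course.

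Neighbouring genes called alike were also found outside the X chromosome. Runs of at least 4 genes up lay on chr7:81347026-81596837 (5 genes, from Cpeb1 to Whamm), on chr12:104247896-104394259 (4 genes of the Serpina3 family), on chr15:74796874-75048920 (Ly6k, Ly6e, Ly6a and Ly6c1) and on chr17:13221188-13554094 (Smok2a, Smok2b, 2700054A10Rik and Smok4a, 3 of them of a family of testis kinases), in RefSeq GRCm38 coordinates. A further run of 4 genes up, Anxa8, Fam25c, Sncg and Mmrn2, lay on chr14:34085979-34404287. Besides the run with Peg10, runs of 4 genes down lay on chr12:44328786-50649271 (from Nrcam to Prkd1) and chr7:24132372-24252339 (Zfp235, Zfp114, Zfp111 and Zfp109). Members of the Serpina3, Ly6 and Smok families are similar in sequence, and how their reads were split between copies is uncertain.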
